A study of Mus musculus with 12 samples.

Results

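Male mouse germ cells of the testis at embryonic day 17 (E17) were compared with those at embryonic day 16 (E16). The comparison used 4 of the 12 libraries of the series, chosen by their labels: 2 of E17 and 2 of E16 germ cells. All 4 came from testis of mice with the genotype Vasa-RFPTg/0, so both groups carried the same Vasa-RFP reporter transgene and no fetal library came from a mouse without it. Vasa, also named Ddx4, is an RNA helicase of germ cells. The labels do not state how the cells were isolated, whether animals were pooled or whether the replicates came from separate animals, so a p-value here reflects the spread of these libraries, which may be technical. RNA was read by SC3-seq, which sequences the 3′ ends of amplified cDNA, from 1 ng of total RNA per library. The other libraries of the series are germ cells at postnatal day 7 (P7) with the same transgene genotype, and cultured germline stem cells (GSCs) of the Acrosin-EGFP; beta-Actin-EGFP line, wild type (WT) or Stag3 knockout. P7 and GSC WT levels are given below only as a description. The P7 tables hold another gene list than the other libraries and were matched by gene ID, and 0% of their counts were mitochondrial. Age and processing therefore cannot be told apart in a P7 level.

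In the fetal testis, male germ cells stop dividing and stay in mitotic arrest as prospermatogonia until after birth. During the arrest their genome regains DNA methylation through DNMT3A and its cofactor DNMT3L, and PIWI proteins guided by piRNAs direct methylation to transposons. The cells lower the pluripotency genes they share with earlier germ cells, and meiosis, which female germ cells enter in the fetus, is delayed in the male until after birth.

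Total counts were 2267245 and 3198503 in the E16 libraries and 1938644 and 2151227 in the E17 libraries. Levels are counts scaled to 1000000 counts over all non-mitochondrial genes (RPM), given for replicate 1 and then replicate 2, and a count of 0 allowed 1.06 to 1.73 RPM (3 counts, counting error only). Log2 fold changes are E17 over E16 from edgeR's quasi-likelihood test with TMM scaling, and a gene passed at a Benjamini-Hochberg adjusted p under 0.05. RPM carry no TMM factor: the factors were 0.928 and 0.868 at E16 and 1.12 and 1.11 at E17, which made the median log2 fold change of all genes lower by 0.31 than library totals alone. A small rise in RPM can therefore stand beside a fold change below 0. The libraries differed in more than day. ERCC spike-ins took 1.22% and 1.52% of counts at E16 and 0.194% and 0.231% at E17. At an equal depth of 1934808 gene counts, 20036 and 19335 genes were detected at E16 and 22087 and 22120 at E17. The 100 most abundant genes held 31.2% and 34.3% of RPM at E16 and 23.9% and 23.9% at E17. The E16 replicates differed from each other more than the E17 replicates did, with a chi-square of 5.95 against 1.52 per gene. No label gives a batch or date, so library preparation and day cannot be told apart.

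Of 13609 genes tested, 155 were higher and 553 were lower at E17, so 5.20% passed the threshold, 1.14% as higher and 4.06% as lower. Of the calls 21.9% were higher, and the split depended on the scaling: it was 78.7% with library totals and 40.9% with scaling fitted to expression level. With library totals in place of TMM, 734 genes (5.39%) were higher and 199 (1.46%) lower. Scaling to the ERCC totals placed 13546 genes higher and 1 lower, with a median log2 fold change of 3.01, and the labels do not state the amount of spike-in added to each library. The number of calls also changed when 1 library of a day was left out. Such a fit leaves that day with 1 library, so the spread within a day comes from the other day's 2 libraries alone. Calls in such fits, here and below, therefore depend on that spread as well as on the library left out. Without E17 replicate 1 the fit called 22 genes higher and 108 lower, and without E17 replicate 2 it called 19 and 139. Without E16 replicate 1 the calls were 1969 and 2409, and without E16 replicate 2 they were 832 and 1395. Fold changes fell with expression level, as the plot of fold change against level shows.

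**Figure D1:**
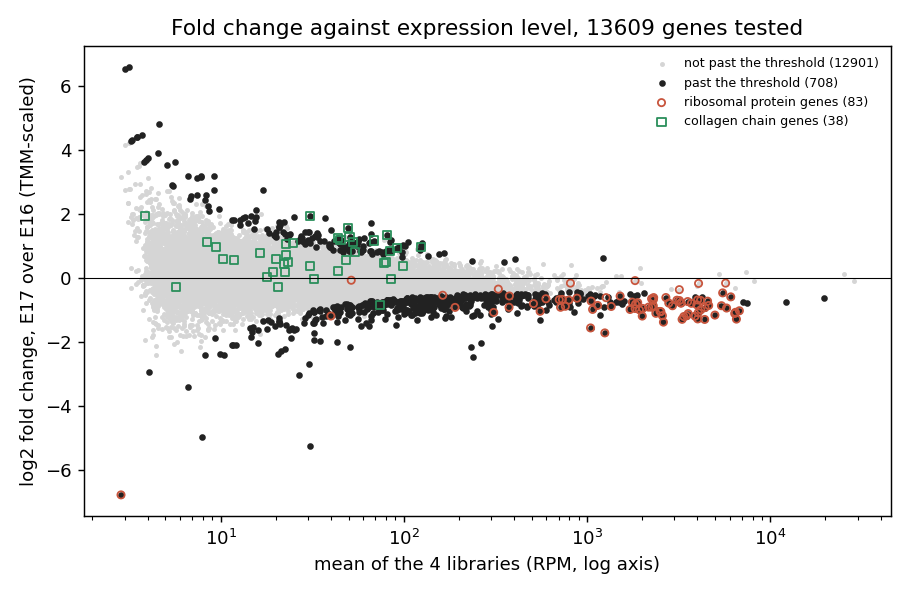
Each point is 1 of the 13609 genes tested, with its mean level over the 4 libraries on a log axis in RPM and its log2 fold change of E17 over E16. Black points passed the threshold, open circles are 83 ribosomal protein genes and open squares are 38 collagen chain genes; calls among abundant genes lie almost all below 0, and 33 of the 38 collagen genes lie above 0.

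Stag3, the cohesin subunit that was knocked out in the cultured cells of the series, lies on chromosome 5 from 138272514 to 138312397 (GRCm38.p6), where the annotation also places parts of Gal3st4 and Gpc2. It was at 411 and 464 RPM at E16 and 535 and 515 RPM at E17. Both E17 values were above both E16 values in RPM, but the scaled difference did not pass (log2 fold change -0.06 ± 0.13 (SE), adjusted p = 0.82). With library totals the log2 fold change was 0.25 with an adjusted p of 0.17, and without E16 replicate 1 it was -0.22 and passed (adjusted p = 0.026). At P7 its level was 227 and 233 RPM. The median log2 fold change of 21 genes tested in a list of cohesin and its regulators was 0.08, beside 0.02 over all genes. Of these 21, 2 rose and none fell, beside 1.14% of all genes called higher. The 2 were the paralogs Pds5a and Pds5b, which bind cohesin and regulate its release from DNA and its acetylation. Pds5a was at 24.8 and 31.3 RPM at E16 and 64.7 and 68.6 RPM at E17 (log2 fold change 0.91 ± 0.23 (SE), adjusted p = 0.044). Pds5b was at 34.8 and 37.3 RPM at E16 and 84.4 and 82.7 RPM at E17 (log2 fold change 0.88 ± 0.20 (SE), adjusted p = 0.026). In both genes each E17 value was more than the higher E16 value, and the replicates of a day lay close together. Pds5a did not pass in DESeq2 (adjusted p = 0.062) or with the scaling fitted to expression level (adjusted p = 0.058). Without E17 replicate 1 and then replicate 2, log2 fold changes were 0.95 and 0.86 for Pds5a. They were 0.87 and 0.89 for Pds5b. The meiotic subunits Rec8, Smc1b and Rad21l did not pass, with log2 fold changes of -0.04, -0.05 and -0.61, and nor did Rad21 (-0.01) or Smc3 (-0.25).

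The 15 largest rises, among genes of at least 20 RPM at E17 whose days did not overlap, were led by Scg2, which encodes a granin of secretory granules (chromosome 1, 79434366 to 79440026). Scg2 was at 4.47 and 2.82 RPM at E16 and 33.5 and 27.2 RPM at E17 (log2 fold change 2.76 ± 0.41 (SE), adjusted p = 0.0035), and it was listed at 0 in both P7 libraries. Car4, a membrane-anchored carbonic anhydrase, was at 5.96 and 3.87 RPM at E16 and 27.2 and 25.1 RPM at E17 (log2 fold change 2.11 ± 0.40 (SE), adjusted p = 0.011). Col24a1, a fibrillar collagen chain, was at 13.9 and 7.74 RPM at E16 and 50.9 and 50.8 RPM at E17 (log2 fold change 1.95 ± 0.31 (SE), adjusted p = 0.0041). All of these genes were low at E16 and low again at P7, where Car4 was at 0.658 and 0.309 RPM and Col24a1 at 1.97 and 0.618 RPM. Cd160, which encodes an immune receptor, had the smallest error of the group: its level was 15.9 and 10.9 RPM at E16 and 57.8 and 64.4 RPM at E17 (log2 fold change 1.89 ± 0.27 (SE), adjusted p = 0.0027). Spo11, the enzyme that makes the DNA breaks of meiosis, was the most abundant of the 15 at E17 (chromosome 2, 172977379 to 172993576, overlapped by Gm52538). Its level was 38.3 and 15.1 RPM at E16 and 105 and 106 RPM at E17 (log2 fold change 1.72 ± 0.30 (SE), adjusted p = 0.0076). The E16 replicates of Spo11 stood apart, while the E17 replicates were nearly equal. Mus81, a nuclease that cuts recombination intermediates, was at 4.47 and 5.63 RPM at E16 and 19.07 and 22 RPM at E17 (log2 fold change 1.67, adjusted p = 0.042). Ell3, an elongation factor of RNA polymerase II, was at 5.96 and 11.3 RPM at E16 and 32.4 and 50.8 RPM at E17 (log2 fold change 1.90), and P7 had 41.4 and 40.8 RPM.

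The other 8 rises had log2 fold changes of 1.74 to 1.94. Tgm6, a transglutaminase, was at 3.48 and 6.34 RPM at E16 and 20.8 and 28.3 RPM at E17. Sgce, an imprinted sarcoglycan gene read from the paternal copy, was at 6.96 and 4.22 RPM at E16 and 23.7 and 27.7 RPM at E17 (log2 fold change 1.91). Cacna1b, a neuronal calcium channel subunit, was at 10.9 and 6.69 RPM at E16 and 27.7 and 44 RPM at E17 (log2 fold change 1.74). Mep1b, a secreted and membrane-bound protease, was at 5.96 and 5.63 RPM at E16 and 22.5 and 27.2 RPM at E17 (log2 fold change 1.77), and it was listed at 0 at P7 and in GSC WT. The remaining genes were Spring1, a regulator of sterol sensing (1.91), D17H6S56E-5 (1.88), the centriole gene Poc1b (1.80) and Ino80c of the INO80 chromatin remodeller (1.76). In none of these did the E16 and E17 libraries overlap, which the choice of genes required. Spring1 overlaps Rnft2 and Poc1b overlaps Galnt4, and whether reads were counted by strand is not stated, so reads of overlapping genes cannot be told apart. All 15 rises passed with library totals. Without E17 replicate 1, 6 of the 15 still passed, and without E17 replicate 2, 5 did. A few rises started from almost no reads: Ncoa7 had 0 counts in the E16 libraries together and 22 in the E17 libraries, at least 4.71-fold higher, and Tmprss15 had 0 and 23, at least 4.94-fold higher (floor of 3 counts per library; both genes were chosen after their values were seen).

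The 15 largest falls were a mixed set. Among them were Cox7b and Ndufs4 of the mitochondrial respiratory chain, the globin genes Hba-a1 and Hbb-bs and the early germ cell gene Dppa3. Cox7b, a subunit of cytochrome c oxidase on the X chromosome (106015700 to 106022450), was at 342 and 385 RPM at E16 and 106 and 100.5 RPM at E17 (log2 fold change -2.14 ± 0.15 (SE), adjusted p = 4.2e-05). Ndufs4, a subunit of complex I, was at 353 and 452 RPM at E16 and 123 and 123 RPM at E17 (log2 fold change -2.04 ± 0.17 (SE), adjusted p = 9.9e-05). Both genes were the most abundant of the falls, their replicates lay close together, and at P7 they were between the fetal levels, at 235 and 260.3 RPM for Cox7b and 233 and 223 RPM for Ndufs4. Dppa3, a factor of primordial germ cells and oocytes that shields DNA from methylation changes, was at 43.7 and 86.9 RPM at E16 and 17.9 and 23.5 RPM at E17 (log2 fold change -2.0 ± 0.34 (SE), adjusted p = 0.0067), and at 7.23 and 3.09 RPM at P7. Its E16 replicates stood apart, but both were above both E17 values. Actn2, an alpha-actinin that crosslinks actin, was at 56.2 and 50.3 RPM at E16 and 14.4 and 19.4 RPM at E17 (log2 fold change -1.96 ± 0.26 (SE), adjusted p = 0.0018). Hsd17b2, an enzyme that inactivates sex steroids, was at 39.3 and 58.4 RPM at E16 and 12.7 and 19.4 RPM at E17 (log2 fold change -1.93 ± 0.32 (SE), adjusted p = 0.0051), and it was listed at 0 in both P7 libraries. Svs4, known as a seminal vesicle secretory gene, was at 26.3 and 22.9 RPM at E16 and 9.25 and 5.76 RPM at E17 (log2 fold change -2.03). Kiss1, the gene of the hormone kisspeptin, was at 17.9 and 27.5 RPM at E16 and 8.67 and 9.94 RPM at E17 (log2 fold change -1.62). The other falls were the transporter gene Abcc10 (-2.23), Bloc1s5 of lysosome-related organelles (-1.88), the phosphatase gene Ptpn3 (-1.83), the lens filament gene Bfsp2 (-1.69), lactase, Lct (-1.61), and the nucleoside diphosphate kinase gene Nme3 (-1.58). Abcc10 overlaps Dlk2, Kiss1 overlaps Golt1a and Nme3 overlaps Mapk8ip3. Actn2, Hsd17b2, Ptpn3 and Bfsp2 also overlap other annotated genes. Reads of these overlapping genes cannot be told apart. Without E17 replicate 1, 10 of the 15 falls still passed, and without E17 replicate 2, 9 did. With library totals Kiss1, Lct and Nme3 did not pass.

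Hba-a1 and Hbb-bs, which encode adult globins of red blood cells, were also among the falls. Hba-a1 was at 23.9 and 77.1 RPM at E16 and 9.25 and 11 RPM at E17 (log2 fold change -2.68 ± 0.50 (SE), adjusted p = 0.011). Hbb-bs was at 56.2 and 103 RPM at E16 and 22 and 23.5 RPM at E17 (log2 fold change -2.15 ± 0.31 (SE), adjusted p = 0.0028). The second E16 library held the most globin reads, and the first lay between it and the E17 libraries. Of 8 erythroid markers listed, 5 were tested and Hba-a1, Hba-a2 and Hbb-bs were lower, while Alas2 was not (0.03, adjusted p = 0.96). The summed level of the 8 was 143 and 273 RPM at E16 and 94.2 and 111 RPM at E17. In such bulk samples fewer cells of a type and less RNA per cell cannot be told apart.

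**Figure D2:**
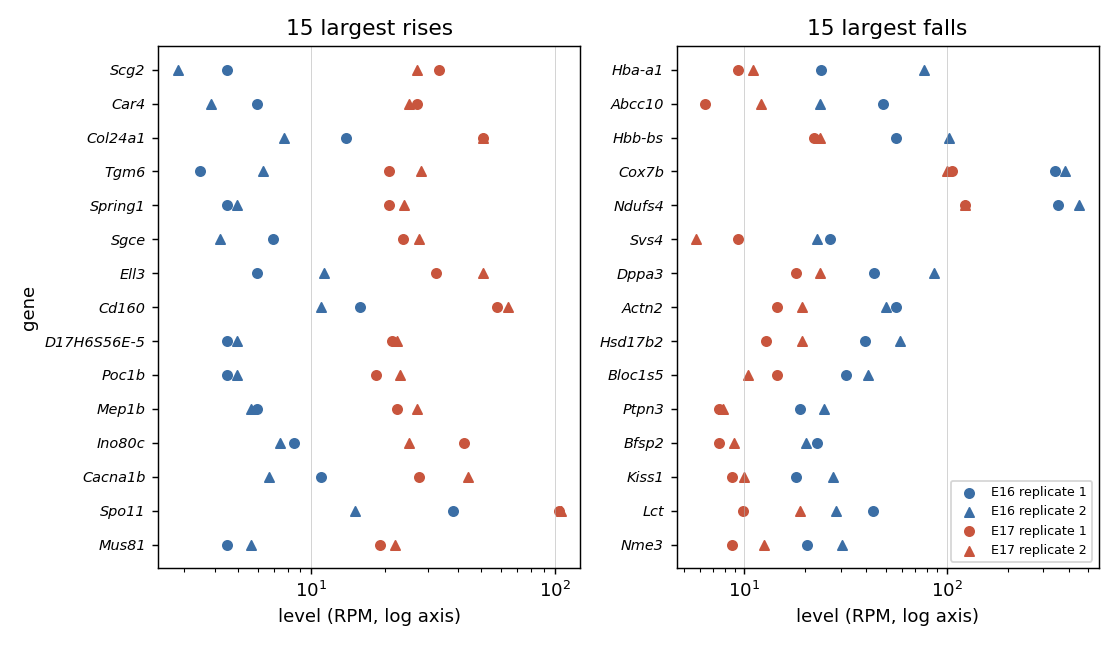
Level of the 15 largest rises and the 15 largest falls in each of the 4 libraries, in RPM on a log axis; circles are replicate 1 and triangles replicate 2. The E17 points lie right of the E16 points for every rise and left of them for every fall, as the choice of genes required, and Cox7b and Ndufs4 are the falls at the highest levels.

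The broadest change was in the genes of the cytoplasmic ribosome, the machine of protein synthesis. Of 83 ribosomal protein genes tested, 74 fell and none rose, beside 4.06% of all genes called lower, and their median log2 fold change was -0.86; with ERCC scaling, as for nearly all genes, the direction turned, with 82 higher. Together they held 24.2% and 27.3% of RPM at E16 and 17.5% and 17.7% at E17. The days did not overlap. The share was 15.6% and 16.5% at P7 and 19.12% and 17.8% in GSC WT. Apart from Rpl32l, the largest fall was that of Rpl36a, a large subunit protein gene, at 1702 and 1918 RPM at E16 and 648 and 735 RPM at E17 (log2 fold change -1.71 ± 0.13 (SE), adjusted p = 6.5e-05). Rpl41, which encodes the smallest ribosomal protein, was at 1381 and 1552 RPM at E16 and 587 and 660.4 RPM at E17 (log2 fold change -1.56 ± 0.13 (SE), adjusted p = 0.00012). Rpl15 was at 3417 and 3634 RPM at E16 and 1590.5 and 1807 RPM at E17 (log2 fold change -1.37 ± 0.12 (SE), adjusted p = 0.00014). Rps18, of the small subunit, was at 4032 and 4707 RPM at E16 and 2358 and 2404 RPM at E17 (log2 fold change -1.20 ± 0.12 (SE), adjusted p = 0.00048). In all of these both E17 values were well under both E16 values. Rplp0 and Rpsa, by contrast, did not pass: Rplp0 was at 3993 and 3702 RPM at E16 and 4281 and 4268 RPM at E17 (log2 fold change -0.17, adjusted p = 0.38) and Rpsa at 5504 and 5268 RPM at E16 and 6027 and 6020.2 RPM at E17 (log2 fold change -0.16, adjusted p = 0.41). Rpl32l, a copy of Rpl32, had 28 counts at E16 and 0 at E17, at least 3.47-fold lower, and had enough counts to be tested only in the E16 libraries. Ribosomal protein genes have many near-identical copies, so how the authors' counting divided reads between them is uncertain. With library totals 58 of the 83 were lower, and with 1 library left out the number was 82 without E16 replicate 1, 77 without E16 replicate 2, 40 without E17 replicate 1 and 44 without E17 replicate 2.

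The promoters of 3 of these ribosomal protein genes are shown because the genes fell together, with those of a respiratory chain gene that fell and a collagen gene that rose for contrast. Each is the 100 bases directly before the annotated start in the RefSeq table (GRCm38.p6), 5′ to 3′ on the gene's strand, with capitals at CCGGAAG or its reverse complement, a motif of the kind that ETS factors bind. Rpl41 is at chr10:128549169-128549268 (minus strand), Rpl15 at chr14:18270987-18271086 (minus), Rps18 at chr17:33955666-33955765 (minus), Uqcrh at chr4:116075071-116075170 (minus) and Col24a1 at chr3:145292372-145292471 (plus).
Rpl41: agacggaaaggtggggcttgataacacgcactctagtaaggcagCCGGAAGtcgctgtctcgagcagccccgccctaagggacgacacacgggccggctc
Rpl15: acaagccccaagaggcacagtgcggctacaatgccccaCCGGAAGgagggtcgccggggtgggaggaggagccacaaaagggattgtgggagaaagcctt
Rps18: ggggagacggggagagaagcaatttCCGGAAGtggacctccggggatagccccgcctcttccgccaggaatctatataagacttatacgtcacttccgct
Uqcrh: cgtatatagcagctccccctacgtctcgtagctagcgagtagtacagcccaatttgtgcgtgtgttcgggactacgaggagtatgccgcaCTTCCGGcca
Col24a1: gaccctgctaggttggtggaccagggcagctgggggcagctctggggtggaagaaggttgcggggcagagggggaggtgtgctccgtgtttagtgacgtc
Those shown for ribosomal protein and respiratory chain genes were picked for holding the motif. In the window from 250 bases before to 50 after the start, on either strand, the motif was in 24 of 63 ribosomal protein genes with a window, in 18 of 76 oxidative phosphorylation genes and in 0 of 29 collagen genes. It was in 17.1% of 10927 tested genes with a window and in 8.86% of all windows. Among genes called lower 23.1% held it, and among genes called higher 12%. The box CCAAT was in 30.2% of ribosomal protein windows and 38.2% of tested windows, and GGGCGG in 58.7% and 61.3%. None of these motifs contains another, and the shares are a description of letters, not of binding.

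**Figure D3:**
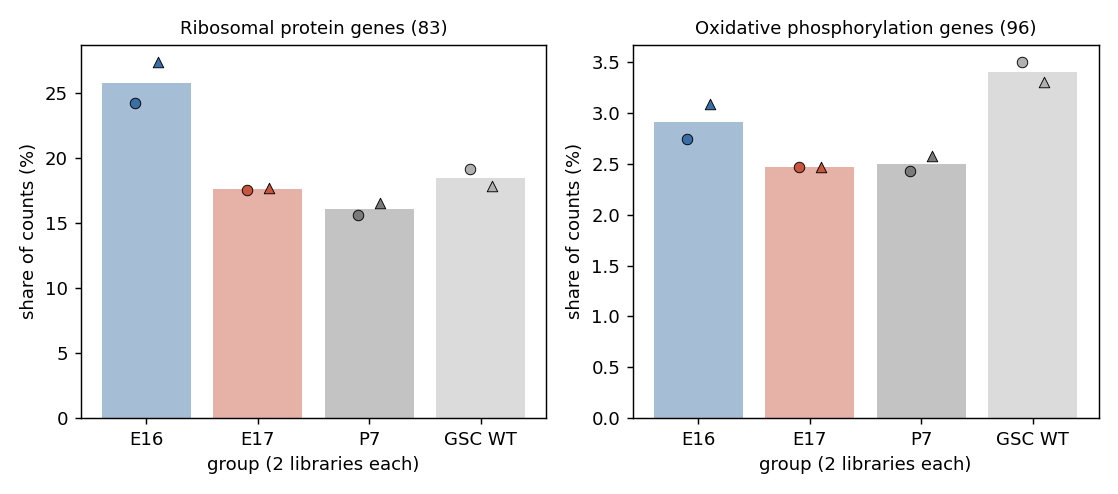
Share of non-mitochondrial gene counts held by 83 ribosomal protein genes (left) and 96 nuclear oxidative phosphorylation genes (right). Bars are means of 2 libraries and points the libraries (circle replicate 1, triangle replicate 2); the ribosomal share is 24.2% and 27.3% at E16 and 17.5% and 17.7% at E17.

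Nuclear genes of oxidative phosphorylation, which build the respiratory chain and ATP synthase, fell as well. Of 91 tested, 33 fell and none rose, beside 4.06% of all genes called lower, and the median log2 fold change was -0.46. By mean level, 0 were called at 50 RPM or less, 38.7% were lower at 100 to 300 RPM and 50% at 300 to 1000 RPM. Among genes outside this list and the ribosomal and mitochondrially encoded lists, 12.9% were lower at 100 to 300 RPM and 29.1% at 300 to 1000 RPM. With library totals 9 of the 91 fell and the median was -0.14, and with ERCC scaling 91 were higher. Their summed share was 2.74% and 3.09% of RPM at E16 and 2.47% and 2.46% at E17. Beside Cox7b and Ndufs4, the largest falls were in the ATP synthase subunit genes. Atp5g1 was at 1409 and 1603 RPM at E16 and 835 and 861 RPM at E17 (log2 fold change -1.15 ± 0.13 (SE), adjusted p = 0.00053). Atp5g2 was at 508 and 536 RPM at E16 and 312 and 300.4 RPM at E17 (log2 fold change -1.09 ± 0.12 (SE), adjusted p = 0.00071). Both encode the ring subunit of ATP synthase, and in both the days did not overlap. Cox7c, of cytochrome c oxidase, was at 1009 and 1117 RPM at E16 and 659 and 624 RPM at E17 (log2 fold change -1.05 ± 0.12 (SE), adjusted p = 0.00078), and Uqcrh, of complex III, at 292 and 399.9 RPM at E16 and 224 and 238 RPM at E17 (log2 fold change -0.91 ± 0.17 (SE), adjusted p = 0.01). With 1 library left out, the number of lower genes was 64 without E16 replicate 1, 42 without E16 replicate 2, 6 without E17 replicate 1 and 8 without E17 replicate 2. Of the 13 protein genes of the mitochondrial genome 12 were tested, of which ATP6 (-0.75, adjusted p = 0.0029), COX2 (-0.61, 0.0083) and ND3 (-0.62, 0.045) fell, and COX1 (0.13), COX3 (-0.09) and CYTB (0.18) did not pass. Beside this count stand 4.06% of all genes called lower. Above 1000 RPM, where ATP6 and COX2 lay, the share was 75.4% of all genes. It was 52.8% there for genes outside the ribosomal, oxidative phosphorylation and mitochondrially encoded lists. Mitochondrial genes held 10.1% and 9.8% of gene counts at E16 and 10.6% and 11% at E17. Without E17 replicate 1 none of the 12 passed, and without E17 replicate 2, ND3 did. With the loess fit described below 6 of the 12 were higher and none lower, and with library totals 2 were higher and 2 lower.

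Ribosomal and respiratory genes are abundant, and both fold changes and calls moved with abundance over all genes. Among genes outside both groups and not encoded by mitochondrial DNA, the median log2 fold change was 0.16 at 20 RPM or less (6065 genes), -0.19 from 100 to 300 RPM (1312 genes) and -0.48 above 1000 RPM (36 genes). The share called lower rose from 0.346% to 12.9% and 52.8% over these levels. Among ribosomal protein genes above 1000 RPM, 59 of 64 were lower, with a median of -0.88. When the scaling was fitted to the level of each gene by loess, an alternative chosen after seeing the data, 175 genes (1.29%) were higher and 253 (1.86%) lower. In that fit 32 ribosomal protein genes were lower and 4 higher, with a median of -0.23, and 11 oxidative phosphorylation genes were lower and 0 higher, with a median of -0.18. Transcript length also moved with the calls: 12.8% of genes with transcripts of up to 750 bases were called lower and 2.26% of those over 3000 bases. The part that level, length, the ERCC share and the number of genes detected have in the ribosomal and respiratory falls was not tested.

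**Figure D4:**
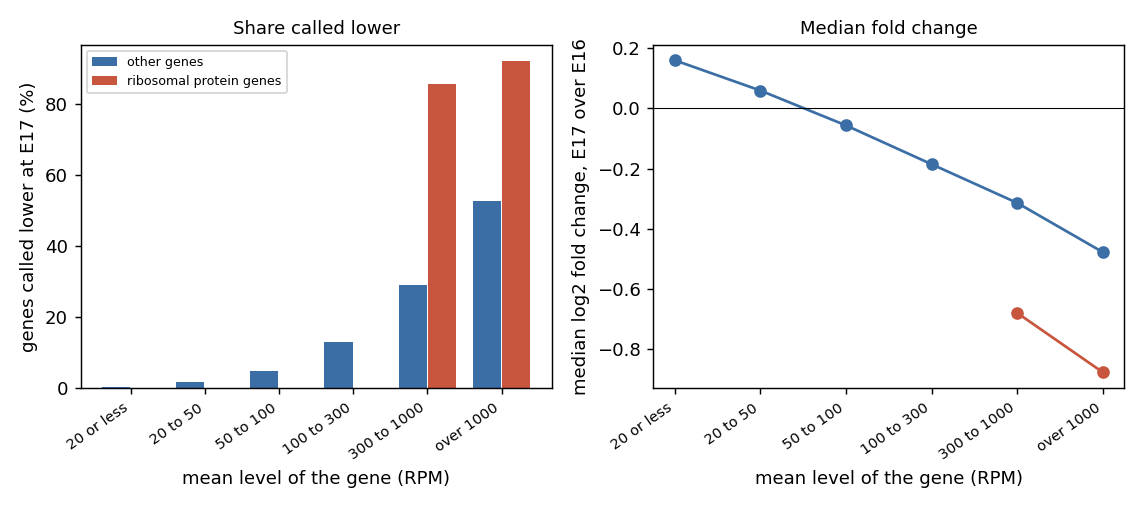
Share of genes called lower at E17 (left, %) and median log2 fold change (right) by mean level in RPM, for ribosomal protein genes and for genes outside the ribosomal, oxidative phosphorylation and mitochondrially encoded lists. Bins of under 10 genes are left out, so ribosomal protein genes appear only above 300 RPM, where their median is -0.68 and -0.88 beside -0.31 and -0.48 for the other genes.

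Other abundant genes with large differences were picked after their values were seen. Eef1a1, the elongation factor that brings aminoacyl-tRNA to the ribosome, was at 8825 and 8381 RPM at E16 and 6265 and 6361 RPM at E17 (log2 fold change -0.77 ± 0.10 (SE), adjusted p = 0.002). Hspa8, a chaperone of the cytosol, was at 3097 and 2923 RPM at E16 and 1874 and 1896 RPM at E17 (log2 fold change -0.99 ± 0.11 (SE), adjusted p = 0.00053). Both were lower in each E17 library than in either E16 library. Cln3, a lysosomal membrane protein gene, went the other way and was the only gene above 1000 RPM called higher: its level was 921 and 756 RPM at E16 and 1632 and 1604 RPM at E17 (log2 fold change 0.63 ± 0.11 (SE), adjusted p = 0.009). Hsp90aa1, a heat shock chaperone gene of similar abundance, was at 4056 and 3739 RPM at E16 and 4188 and 3984 RPM at E17 and did not pass (log2 fold change -0.25, adjusted p = 0.19). Without E17 replicate 1 the log2 fold changes of Eef1a1, Hspa8 and Cln3 were -0.76, -0.99 and 0.62 with adjusted p = 0.11, 0.012 and 0.25, and without E17 replicate 2 the adjusted p-values were 0.087, 0.0078 and 0.2. Under the loess fit Eef1a1 did not pass and its log2 fold change turned to 0.05 (adjusted p = 0.77), while that of Hspa8 shrank to -0.35 (adjusted p = 0.044).

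Genes of the piRNA pathway were abundant on both days, and 5 of 23 tested fell while none rose. Beside this count stand 4.06% of all genes called lower, 13.5% of all genes at 100 to 300 RPM and 33.1% at 300 to 1000 RPM. The median log2 fold change was -0.27, and it was 0.05 with library totals, under which 2 were lower. Morc1, a nuclear protein needed to silence transposons in fetal male germ cells, fell most, at 315 and 295 RPM at E16 and 169 and 163 RPM at E17 (log2 fold change -1.20 ± 0.13 (SE), adjusted p = 0.00053). Piwil4, also named Miwi2, the nuclear PIWI protein of fetal male germ cells, was at 679.8 and 586 RPM at E16 and 419 and 441 RPM at E17 (log2 fold change -0.87 ± 0.12 (SE), adjusted p = 0.0021). At P7 Piwil4 was at 69.1 and 58.1 RPM, below its level on both fetal days. Mov10l1, the helicase that starts piRNA processing, was at 411 and 386 RPM at E16 and 299.9 and 312 RPM at E17 (log2 fold change -0.70 ± 0.12 (SE), adjusted p = 0.0068). Spocd1, which links MIWI2 to DNA methylation, was at 914 and 932 RPM at E16 and 842 and 851 RPM at E17 (log2 fold change -0.45 ± 0.11 (SE), adjusted p = 0.043), and Tdrd9, a helicase of the same pathway, at 831 and 827 RPM at E16 and 756 and 771 RPM at E17 (log2 fold change -0.44 ± 0.11 (SE), adjusted p = 0.045). Spocd1 and Tdrd9 are borderline: under the loess fit their log2 fold changes turned to 0.04 and 0.03. Mov10l1 did not pass in that fit either (adjusted p = 0.088). The PIWI gene Piwil2 did not pass, at 719 and 643 RPM at E16 and 796 and 842 RPM at E17 (-0.05, adjusted p = 0.84), and nor did Mael (-0.11), Tex15 (-0.22) or Ddx4 itself (-0.23). With 1 library left out, the number of lower genes was 11 without E16 replicate 1, 13 without E16 replicate 2, 1 without E17 replicate 1 and 2 without E17 replicate 2.

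Of 9 DNA methylation genes tested, 1 fell and none rose, beside 4.06% of all genes called lower. At 300 to 1000 RPM, the range of the gene that fell, 33.1% of all genes were lower. Dnmt3l, the cofactor of de novo methylation, was at 885 and 995 RPM at E16 and 776 and 769 RPM at E17 (log2 fold change -0.61 ± 0.12 (SE), adjusted p = 0.016), and its P7 level was 7.23 and 9.89 RPM. Its replicates of a day were similar, and the days did not overlap. The methyltransferase Dnmt3a did not pass, at 487 and 369 RPM at E16 and 464 and 437 RPM at E17 (-0.24, adjusted p = 0.33), and Kdm1b, a histone demethylase best known from imprinting in oocytes, was at 1262 and 1088 RPM at E16 and 1282 and 1186 RPM at E17 (-0.25, adjusted p = 0.23). Uhrf1, which guides maintenance methylation, was too low to be tested, at 1.99 and 2.11 RPM at E16 and 7.51 and 3.66 RPM at E17. Dnmt3l did not pass with library totals (log2 fold change -0.29, adjusted p = 0.11) or under the loess fit (-0.12, adjusted p = 0.54). No gene of the list was lower in the loess fit. Without E17 replicate 1 and then replicate 2, the log2 fold change of Dnmt3l was -0.62 and -0.61.

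Among 17 tested genes of pluripotency and early germ cells, Dppa3, Utf1 and Pou5f1 fell and none rose, with a median log2 fold change of -0.21. Beside this count stand 4.06% of all genes called lower. By level the share of all genes was 1.62% at 20 to 50 RPM, 13.5% at 100 to 300 RPM and 33.1% at 300 to 1000 RPM. Utf1, a chromatin protein of pluripotent cells, was at 359 and 380.2 RPM at E16 and 215 and 246 RPM at E17 (log2 fold change -1.0 ± 0.13 (SE), adjusted p = 0.002). Pou5f1, which encodes OCT4, was at 108 and 122 RPM at E16 and 93 and 90 RPM at E17 (log2 fold change -0.66 ± 0.17 (SE), adjusted p = 0.044). Both were lower in each E17 library than in either E16 library and lower again at P7, where Utf1 was at 22.7 and 28.7 RPM and Pou5f1 at 29.9 and 24.1 RPM. Dppa4, a chromatin protein of pluripotent and germ cells, did not pass, at 539.7 and 469 RPM at E16 and 542 and 545 RPM at E17 (log2 fold change -0.21, adjusted p = 0.33). Nanog and Sox2 were low, at 6.46 and 5.28 RPM at E16 and 7.51 and 8.9 RPM at E17 for Nanog and 4.47 and 10.6 RPM at E16 and 9.82 and 4.71 RPM at E17 for Sox2, and neither passed. With library totals Dppa3 and Utf1 passed and Pou5f1 did not. With 1 library left out, the number of lower genes was 5 without E16 replicate 1, 6 without E16 replicate 2, 2 without E17 replicate 1 and 2 without E17 replicate 2. Of 9 male fetal germ cell factors tested, Dnd1 alone passed, as lower, beside 4.06% of all genes called lower. Dnd1, an RNA-binding partner of NANOS2, was at 192 and 195 RPM at E16 and 139 and 141 RPM at E17 (log2 fold change -0.79 ± 0.14 (SE), adjusted p = 0.0082), and it did not pass with library totals or without either E17 library. Nanos2 itself was at 1.49 and 0.352 RPM at E16 and 1.16 and 0 RPM at E17, at or below the level of 3 counts, and was not tested. Dazl, an RNA-binding protein of germ cells, was at 461 and 441 RPM at E16 and 637 and 596 RPM at E17, but did not pass (0.13, adjusted p = 0.56).

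In edgeR 3 of 10 cell cycle inhibitor and pocket protein genes had an unadjusted p under 0.05, beside 2920 of all 13609 genes. None of the 10 passed, and DESeq2 called 0 and limma-voom 0. With library totals 3 of them were higher, and without E16 replicate 1, 3. Cdkn1c, which encodes the inhibitor p57, was the most abundant, at 156 and 122 RPM at E16 and 224 and 246 RPM at E17 (log2 fold change 0.45, adjusted p = 0.1). The retinoblastoma gene Rb1 was at 52.7 and 40.8 RPM at E16 and 87.8 and 82.2 RPM at E17 (log2 fold change 0.55, adjusted p = 0.13). In both genes the E17 values were above the E16 values. Cdkn2d, another inhibitor gene, had a log2 fold change of 1.17 (adjusted p = 0.11), and Cdkn1b was at 3.98 and 5.98 RPM at E16 and 6.36 and 7.85 RPM at E17. Of 22 genes of mitosis, Ccnb1 and Ncapg fell and none rose, beside 4.06% of all genes called lower. Ccnb1, which encodes cyclin B1, was at 99.4 and 117 RPM at E16 and 84.4 and 81.6 RPM at E17 (log2 fold change -0.71 ± 0.18 (SE), adjusted p = 0.04), and Ncapg, a condensin subunit, at 91.9 and 127 RPM at E16 and 80.9 and 75.4 RPM at E17 (log2 fold change -0.82 ± 0.20 (SE), adjusted p = 0.039). The proliferation marker Mki67 was low on both days, at 12.4 and 16.9 RPM at E16 and 20.8 and 25.1 RPM at E17, and at 162 and 155 RPM at P7. Of 23 DNA replication genes, Ccne2 rose and Rrm1 fell, beside 1.14% of all genes called higher and 4.06% called lower. Ccne2, which encodes cyclin E2, was at 8.45 and 7.04 RPM at E16 and 31.2 and 25.1 RPM at E17 (log2 fold change 1.54 ± 0.36 (SE), adjusted p = 0.028). Rrm1, a subunit of ribonucleotide reductase, was at 104 and 131 RPM at E16 and 88.4 and 74.3 RPM at E17 (log2 fold change -0.86 ± 0.19 (SE), adjusted p = 0.023). The other cyclin E gene, Ccne1, was at 4.97 and 3.87 RPM at E16 and 17.3 and 16.7 RPM at E17 with an adjusted p of 0.063. None of Ccnb1, Ncapg, Ccne2 and Rrm1 passed without E17 replicate 1 or without E17 replicate 2, and Ccnb1, Ncapg and Rrm1 did not pass with library totals.

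Of 31 tested genes of meiotic prophase, Spo11 rose and Hsf2bp and Mnd1 fell, beside 1.14% of all genes called higher and 4.06% called lower. The median log2 fold change of the list was 0.05. Hsf2bp, which binds BRCA2 in meiotic recombination, was at 51.2 and 41.9 RPM at E16 and 27.2 and 22.5 RPM at E17 (log2 fold change -1.22 ± 0.25 (SE), adjusted p = 0.016). Mnd1, which helps the strand exchange enzymes, was at 79 and 83.8 RPM at E16 and 65.3 and 56.5 RPM at E17 (log2 fold change -0.74 ± 0.19 (SE), adjusted p = 0.042). The axis and synaptonemal complex genes did not pass: Sycp3 was at 114 and 108 RPM at E16 and 205 and 159.6 RPM at E17 (0.40, adjusted p = 0.18) and Sycp2 at 92.4 and 59.8 RPM at E16 and 158 and 133 RPM at E17 (0.63, adjusted p = 0.087). Hormad1, at 202 and 156 RPM at E16 and 231 and 228 RPM at E17, did not pass either (0.05). Stra8, the gatekeeper of meiotic entry, was at 5.96 and 1.76 RPM at E16 and 9.25 and 5.23 RPM at E17. Hsf2bp and Mnd1 did not pass with library totals or without either E17 library; Spo11 passed in each of those fits.

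Regulators of spermatogonia, the dividing cells that follow after birth, were mostly low. Of 23 tested 1 fell and none rose, beside 4.06% of all genes called lower. Egr4, a zinc finger factor, was at 247 and 252 RPM at E16 and 155 and 177 RPM at E17 (log2 fold change -0.91 ± 0.14 (SE), adjusted p = 0.0038), and at 469 and 432 RPM at P7. Sohlh1 was at 260.4 and 257 RPM at E16 and 323 and 321 RPM at E17 (log2 fold change -0.01, adjusted p = 0.99). Gfra1, the receptor for GDNF, was at 8.45 and 4.22 RPM at E16 and 15 and 15.7 RPM at E17 and did not pass (1.0, adjusted p = 0.24). Egr4 also passed with library totals, and it did not pass without E17 replicate 1 (log2 fold change -0.82, adjusted p = 0.11). None of 12 retinoic acid genes passed in edgeR, and DESeq2 called 0 and limma-voom 0. In edgeR 2 of 12 had an unadjusted p under 0.05, beside 2920 of all 13609 genes. The synthesis enzyme Aldh1a2 was the most abundant of the 12, at 102 and 98.6 RPM at E16 and 109 and 133 RPM at E17. The retinoic acid breakdown enzyme Cyp26b1 was at 2.48 and 3.52 RPM at E16 and 12.7 and 9.94 RPM at E17 (log2 fold change 1.54, adjusted p = 0.15). Of 18 genes of TGF-beta, Nodal, activin and BMP signalling, the receptor gene Acvr1b fell, at 38.8 and 47.9 RPM at E16 and 24.3 and 28.8 RPM at E17 (log2 fold change -1.04 ± 0.26 (SE), adjusted p = 0.04), and none rose. The share of all genes called lower was 4.06%. Acvr1b did not pass with library totals or without either E17 library. The ligand and inhibitor genes Nodal, Lefty1 and Lefty2 were too low to be tested.

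In edgeR 6 of 28 repressive chromatin genes had an unadjusted p under 0.05, beside 2920 of all 13609 genes. None of the 28 passed, and DESeq2 called 0 and limma-voom 0. With library totals 3 were higher, and without E16 replicate 1, 5 were higher and 6 lower. Ehmt2, which encodes the histone methyltransferase G9a, was the most abundant, at 693 and 556 RPM at E16 and 962 and 1077 RPM at E17 (log2 fold change 0.39, adjusted p = 0.094). None of 20 glycolysis genes passed in edgeR, DESeq2 called 1, limma-voom called 1 and 3 were higher with library totals. In edgeR 8 of 20 had an unadjusted p under 0.05, beside 2920 of all 13609 genes. The median log2 fold change of the list was -0.09 beside that of -0.46 for oxidative phosphorylation, and the difference between the lists was not tested. Each of the next lists held 1 rise, beside 1.14% of all genes called higher. Icam1 and Fosb had enough counts to be tested only in the E17 libraries. The counts of their lists are therefore a description and not a result about those lists. Of 18 p53 and apoptosis genes Perp rose, at 31.8 and 30.3 RPM at E16 and 75.1 and 63.3 RPM at E17 (log2 fold change 0.83 ± 0.22 (SE), adjusted p = 0.046). Perp encodes a membrane protein of desmosomes and a p53 target, and it was at 0.329 and 2.16 RPM at P7. Of 17 surface and adhesion genes Icam1, an adhesion receptor for white blood cells, rose, at 1.99 and 2.82 RPM at E16 and 12.1 and 17.3 RPM at E17 (log2 fold change 2.24 ± 0.56 (SE), adjusted p = 0.041). Among 20 immediate early and stress genes Fosb, an AP-1 subunit gene, rose: it had 1 count in the E16 libraries and 23 in the E17 libraries, a ratio of 30.7 with an exact 95% counting interval of 4.98 to 1263. The related genes Fos and Junb had log2 fold changes of 1.78 and 2.12 but did not pass (adjusted p = 0.1 and 0.091), and the list's median was 0.52. Perp and Icam1 did not pass without E17 replicate 1 or without E17 replicate 2, and Fosb was too low to be tested in those fits. Fosb did not pass with limma-voom (adjusted p = 0.061), with thinned counts (0.068), in the fit of 6 in vivo libraries (0.054) or under the loess fit (0.43), and DESeq2 gave it no adjusted p. Perp and Icam1 did not pass under the loess fit, and Perp did not pass in DESeq2.

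Of 23 imprinted genes tested, Sgce rose and Igf2r fell, beside 1.14% of all genes called higher and 4.06% called lower. Without E17 replicate 1 and then replicate 2, the log2 fold change of Sgce was 2.01 and 1.78. Igf2r, the maternally expressed receptor that clears IGF2, was at 50.2 and 37.3 RPM at E16 and 22.5 and 22.5 RPM at E17 (log2 fold change -1.26 ± 0.26 (SE), adjusted p = 0.016), and it did not pass with library totals or without either E17 library. Grb10 and Meg3, 2 abundant imprinted genes, did not pass, with Grb10 at 221 and 231 RPM at E16 and 314 and 287 RPM at E17 (0.09) and Meg3 at 76 and 101 RPM at E16 and 125 and 126 RPM at E17 (0.17). H19 was at 0.994 and 3.52 RPM at E16 and 11 and 12.6 RPM at E17 (log2 fold change 1.94, adjusted p = 0.11). In a set of germline antigen and homeobox families named Mage, Xlr, Ssx and Rhox, 32 genes were tested, 4 rose and 1 fell, beside 1.14% of all genes called higher. Magea5 and Rhox12 had enough counts to be tested only in the E17 libraries, so the count is a description and not a result about the set. The set was taken by name, so it also holds Ssx2ip, a centrosome gene of chromosome 3 that is no member of these families. Ssx2ip was at 77.5 and 39.1 RPM at E16 and 152 and 136 RPM at E17 (log2 fold change 1.02 ± 0.24 (SE), adjusted p = 0.033). Xlr3b was at 10.4 and 8.45 RPM at E16 and 32.4 and 27.2 RPM at E17 (log2 fold change 1.34 ± 0.34 (SE), adjusted p = 0.041), and Magea5 at 1.99 and 0.704 RPM at E16 and 11 and 17.8 RPM at E17 (log2 fold change 3.14 ± 0.68 (SE), adjusted p = 0.021). Rhox12 had 1 count at E16 and 33 at E17, a ratio of 44 with a counting interval of 7.36 to 1789. Rhox10, a homeobox gene of the same X-linked cluster, fell, at 157 and 245 RPM at E16 and 139 and 123 RPM at E17 (log2 fold change -0.95 ± 0.21 (SE), adjusted p = 0.024). Rhox10 did not pass with library totals (adjusted p = 0.08), under the loess fit (0.06) or without E17 replicate 2 (0.097), and with library totals 7 genes of the set were higher and 0 lower. Xlr3b, Magea5 and Rhox12 did not pass under the loess fit. These families are made of near-identical copies, so reads of 1 copy may be counted for another. With 1 library left out, the number of higher genes was 7 without E16 replicate 1, 7 without E16 replicate 2, 0 without E17 replicate 1 and 1 without E17 replicate 2. Of 249 genes named Zfp with a number, 3 rose and 4 fell, beside 1.14% of all genes called higher and 4.06% called lower. The median log2 fold change of the 249 was 0.02 (15 were higher and 0 lower with library totals). Zfp318 was the most abundant of those that rose, at 111 and 90.5 RPM at E16 and 226 and 194 RPM at E17 (log2 fold change 0.75 ± 0.15 (SE), adjusted p = 0.018). Of 63 clustered histone genes, whose mRNA mostly lacks a poly(A) tail, only H2bc4 could be tested, and it fell from 6.96 and 7.04 RPM to 1.16 and 1.05 RPM (adjusted p = 0.046). H2bc4 had enough counts to be tested only in the E16 libraries.

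Collagen chain genes, which encode proteins of the extracellular matrix, held 11 of the rises. The group was chosen after its values were seen, so its counts are a description. Of 38 tested, 11 rose and 1 fell, beside 1.14% and 4.06% of all genes, and the median log2 fold change was 0.66. Col9a1, a collagen that lies on the surface of fibrils, was at 20.4 and 21.8 RPM at E16 and 78.6 and 78 RPM at E17 (log2 fold change 1.56 ± 0.22 (SE), adjusted p = 0.0027). Col11a1, a fibril-forming chain, was at 55.2 and 23.6 RPM at E16 and 123 and 121 RPM at E17 (log2 fold change 1.36 ± 0.28 (SE), adjusted p = 0.018). Col2a1, the main collagen of cartilage, was at 75 and 69 RPM at E16 and 173 and 177 RPM at E17 (log2 fold change 0.96 ± 0.15 (SE), adjusted p = 0.0044). In each of these both E17 libraries were above both E16 libraries, and their P7 levels were lower than both days: Col9a1 was at 0 and 0.309 RPM, Col11a1 at 0.987 and 1.24 RPM and Col2a1 at 6.91 and 5.25 RPM. Col5a2 (1.17), Col5a1 (1.20), Col11a2 (1.29), Col6a1 (1.24), Col16a1 (0.95), Col6a4 (0.84) and Col1a2 (1.14) rose beside Col24a1. Col18a1, a collagen of basement membranes, fell, at 90.9 and 83.8 RPM at E16 and 58.9 and 62.3 RPM at E17 (log2 fold change -0.84 ± 0.18 (SE), adjusted p = 0.019). The loess fit also called 11 higher and 1 lower, and library totals 15 and 0, so that Col18a1 did not pass there. With 1 library left out, the number of higher genes was 21 without E16 replicate 1, 14 without E16 replicate 2, 5 without E17 replicate 1 and 5 without E17 replicate 2. Collagen transcripts are long, with a median of 4759 bases beside 2189 over all genes tested, and genes of long transcripts had slightly higher fold changes (median 0.09 above 3000 bases).

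**Figure D5:**
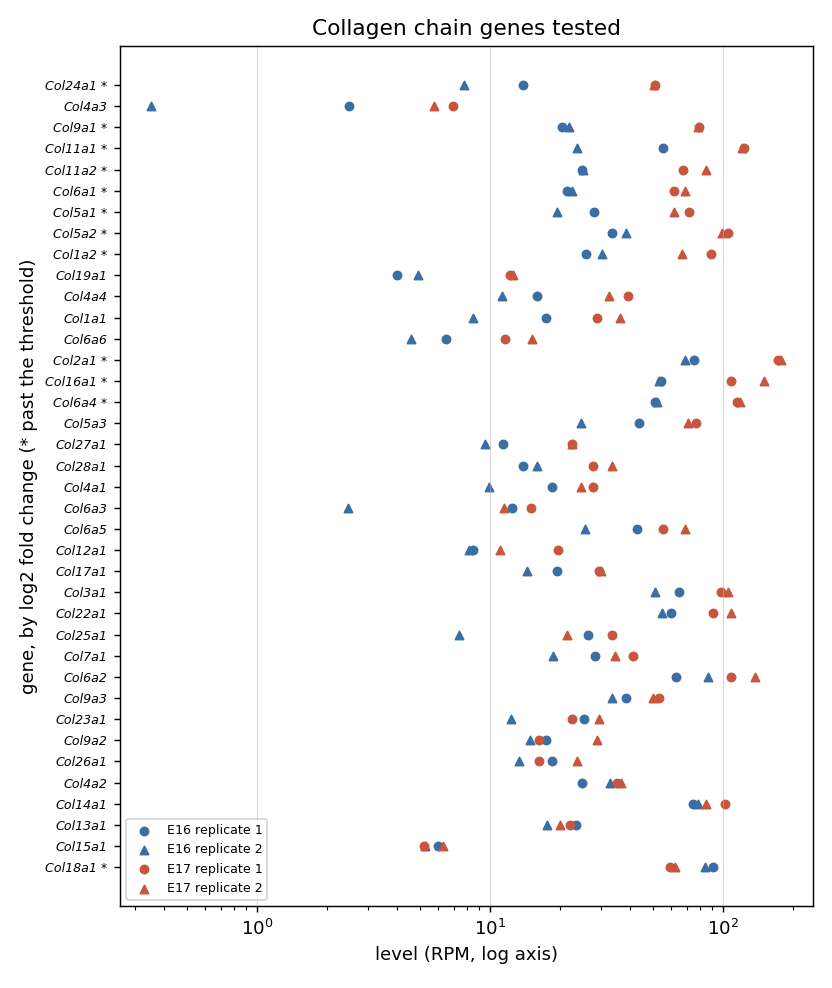
Level of the 38 collagen chain genes tested in each of the 4 libraries, in RPM on a log axis, ordered by log2 fold change; circles are replicate 1, triangles replicate 2 and an asterisk marks a gene past the threshold. E17 points lie right of E16 points for the 11 genes that rose, and Col18a1 at the bottom is the gene that fell.

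Markers of interstitial fibroblasts were higher in sum at E17. Their summed level over 9 genes was 133 and 109 RPM at E16 and 264 and 244 RPM at E17, but 3 of the 9 are collagens. The sum of the 6 others was 24.8 and 19.4 RPM at E16 and 48 and 36.1 RPM at E17. Of these, Pdgfra was at 16.9 and 18.7 RPM at E16 and 21.4 and 18.3 RPM at E17 (log2 fold change -0.17, adjusted p = 0.8) and Dcn, decorin, at 3.48 and 0.704 RPM at E16 and 12.7 and 6.28 RPM at E17 (1.94, adjusted p = 0.17). Only 3 of the 6 could be tested, and none of these 3 passed. Of the list of 9, 6 were tested and only Col1a2 passed, as higher, beside 1.14% of all genes called higher. With library totals 2 were higher. The part of the fibroblast markers in the collagen rise was not tested.

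Germ cell markers were the most abundant markers in all 4 libraries. Summed over 9 genes they stood at 4239 and 3694 RPM at E16 and 4454 and 4476 RPM at E17, with Ddx4 at 604 and 555 RPM at E16 and 636 and 597 RPM at E17. Sertoli cell markers summed to 217 and 174 RPM at E16 and 204 and 208 RPM at E17, much of it Clu, at 109.8 and 96.8 RPM at E16 and 83.8 and 96.8 RPM at E17. Leydig cell markers summed to 31.8 and 31.7 RPM at E16 and 40.5 and 39.2 RPM at E17, peritubular myoid cell markers to 95.9 and 85.9 RPM at E16 and 105 and 116 RPM at E17, endothelial markers to 39.3 and 36.6 RPM at E16 and 61.3 and 60.7 RPM at E17, macrophage markers to 17.9 and 12.3 RPM at E16 and 20.8 and 22.5 RPM at E17 and coelomic epithelium markers to 31.3 and 26.4 RPM at E16 and 30.6 and 40.3 RPM at E17. Of the markers of these 6 other cell types, 22 of 43 were tested and none passed, and Amh of Sertoli cells, Insl3 of Leydig cells and Upk3b of coelomic epithelium were at 0 in all 4 libraries. The Leydig, myoid, endothelial and macrophage sums were higher in both E17 libraries than in either E16 library, but these sums carry no TMM factor. With TMM scaling the median log2 fold change was 0.30 for 2 Leydig genes tested and -0.03 for 4 myoid genes. It was 0.10 for 4 endothelial genes and 0.93 for 2 macrophage genes, beside 0.02 over all genes. The part of these cell types in the differences above was not tested. The Sertoli and coelomic epithelium sums overlapped between the days.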

How the data were processed

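SC3-seq counts of 4 libraries were used. The authors deposited read counts per gene, taken here unchanged; per the submitters' processing notes the genome was GRCm38.p6 and the tools included HTSeq 0.9.1, TopHat2 2.1.1, Salmon 1.4.0 and cutadapt 1.18; the role of each, and whether counting used strand, is not given in the sources used here. Spike-in and transgene rows and 10 rows with no value were left out. Symbols came from RefSeq by gene ID (35574 of 35652 matched). Genes passing filterByExpr were tested with edgeR 4.0.16 (R 4.3.3) by the quasi-likelihood test on the 4 libraries, TMM scaling and Benjamini-Hochberg adjustment at 0.05. DESeq2 1.42.0, limma 3.58.1 and the other settings given at the end were alternatives, and the fit was tested on simulated data. RPM were computed here as counts per 1000000 non-mitochondrial gene counts, and intervals and floors cover counting error only. The named genes are the 15 largest rises and falls past the threshold with days that did not overlap and at least 20 RPM in the higher group, without mitochondrial, ribosomal protein, Gm, Rik and LOC genes, followed by examples of each list and Stag3. Members, the 24 lists and the 9 marker lists were chosen with earlier results of these data known, and the histone pattern was corrected once it matched 0 symbols. A replicate number shared by the days did not pair libraries.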

Additional observations from a re-analysis of the deposited data

Results flagged for a closer look

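Rows for transgene sequences stand outside the gene tests, and they held reads in all 4 fetal libraries. Their counts were 92 and 171 in E16 replicates 1 and 2 and 68 and 74 in E17 replicates 1 and 2. These are sums over 5 rows, given as counts with no control library without a transgene among the fetal samples.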

How the results depend on the processing

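Of the 30 largest rises and falls, 23 passed in the same direction in each setting other than ERCC scaling, DESeq2 and leaving out a library, 12 also with each library left out, and 30 kept their sign in those settings. DESeq2 gave an adjusted p to 5 of the 30, all 5 past the threshold in the same direction. Leaving out 1 library gave 130 to 4378 genes past the threshold, 19 to 1969 higher and 108 to 2409 lower. Of the 708 calls, 127 remained without E17 replicate 1, 153 without E17 replicate 2, 354 with library totals and 336 with the loess fit, which was chosen after seeing the data. DESeq2 called 62 genes higher and shared 528 calls. Library totals gave 734 higher and 199 lower, no filter on low counts 1159 in all and 354 higher, the fit of 6 in vivo libraries 242 higher, the fit of 10 libraries 1692 in all, 503 higher and 1189 lower, the loess fit 428 in all and 253 lower, and an added absolute log2 fold change of at least 1 gave 265 in all and 151 lower. Fits with more libraries and the size limit differ by construction, and for the other settings the cause was not tested. With the replicate block, 1363 genes passed, 453 higher and 910 lower; libraries of the same number did not deviate together (r = 0.026 across genes), so the numbers were not taken as pairs. ERCC scaling called 13547 genes, 13546 higher and 1 lower, and turned the log2 fold change of 46 named genes: Stag3 2.96, Hba-a1 0.42, Abcc10 0.66, Hbb-bs 0.91, Cox7b 0.88, Ndufs4 0.99, Svs4 0.97, Dppa3 1.06, Actn2 1.01, Hsd17b2 1.08, Bloc1s5 1.16, Ptpn3 1.19, Bfsp2 1.28, Kiss1 1.41, Lct 1.31, Nme3 1.43, Eef1a1 2.23, Hspa8 2.0, Dnd1 2.22, Pou5f1 2.36, Utf1 2.0, Dnmt3l 2.41, Piwil4 2.11, Mov10l1 2.29, Tdrd9 2.56, Spocd1 2.56, Morc1 1.80, Ccnb1 2.32, Ncapg 2.22, Rrm1 2.18, Egr4 2.09, Hsf2bp 1.77, Mnd1 2.27, Acvr1b 1.98, Atp5g1 1.86, Rpl36a 1.30, Rpl41 1.45, Rpl15 1.63, ND3 2.38, COX2 2.40, ATP6 2.26, Igf2r 1.71, Rhox10 2.11, Zfp775 1.66, Hba-a2 0.66 and Col18a1 2.15. The loess fit turned Eef1a1 0.0501, Tdrd9 0.0305, Spocd1 0.0432, COX2 0.363 and ATP6 0.145. With 2 libraries a day, 22043 of 35652 genes were too low to be tested.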
